A study of Mus musculus with 6 samples.

Results

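Acute-phase proteins are secreted in inflammation, mostly by the liver but also by epithelium, fat and phagocytes, and interleukins are the messengers that raise them. The 10 genes described here were taken by their symbols from a table of 33036 messenger and long noncoding RNA features of whole mouse ovary. They comprise 3 acute-phase genes (Lcn2, Saa3 and Hp), the interleukin genes Il18, Il33, Il1b and Il6, and the receptor genes Il1r1, Il6ra and Il6st. All 10 were found in the table, 8 reached the filter for testing and 2, Il1b and Il6, did not.

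Ovaries came from female C57BL/6J mice (C57BL/6 in the series text), with 3 libraries in each of 2 groups. The normal-pressure group stayed at the local air pressure of Lanzhou, 83.56 kPa with 17.8 kPa oxygen, given as 1500 m by the titles but as 1588 m by the series text. The hypobaric hypoxia group lived in a low-pressure chamber at 43.12 kPa with 8.1 kPa oxygen, given as 6500 m by the titles but as 5000 m by the descriptions. Exposure lasted 15 days in the series text and 15, 16 and 17 days in the descriptions of replicates 1, 2 and 3 of both groups. The mice were 8 weeks old by the series text, or 6 to 8 weeks by the descriptions. The dark hours read 12, 13 and 14 for the control replicates and 12 for every hypoxia replicate. If real, this difference cannot be told apart from hypoxia. Both groups received levonorgestrel and ethinylestradiol by mouth to align their cycles, but doses (0.1 and 0.02 mg/kg) are labelled for the hypoxia samples alone, so hypoxia and hormone dosing cannot be told apart if these differed. Each group held 15 mice, and which mouse or pool gave a library is not stated, so p-values measure the spread between libraries, which may be partly technical.

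Inflammatory interleukins act in a cascade. Interleukin-1β and interleukin-6, released by macrophages and other cells, signal through the receptors IL1R1 and IL6RA with gp130 (encoded by Il6st), and the transcription factors NF-κB, C/EBP and STAT3 then switch on acute-phase genes. Interleukin-18 and interleukin-33 belong to the interleukin-1 family. In the ovary, inflammatory mediators are known for their part in ovulation and in the regression of the corpus luteum.

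Lcn2, Saa3, Hp and Il18 were lower after hypobaric hypoxia, and none of the 4 receptor and alarmin genes tested (Il1r1, Il6ra, Il6st and Il33) passed the test. The mRNAs of the upstream messengers interleukin-1β and interleukin-6 lay near 0 in both groups. With limma on log2(TPM + 1), 4 of 8 tested members were lower and none higher, against a background of 18.3% of 17120 tested features called in either direction, 7.20% lower and 11.1% higher. Without adjustment the same counts, 4 lower and 0 higher, had a p under 0.05. Saa3 met the filter through its normal-pressure libraries, since only replicate 3 of its hypoxia libraries (0, 0.33 and 1.56 TPM) exceeded 1 TPM. Its being tested is thus tied to its difference, and with no filter its limma adjusted p was 0.025. Library values did not overlap between groups, with hypoxia lower, for 4 members and 11.6% of tested features, and with hypoxia higher for 1 member and 27.6% of features. The median log2 fold change was -0.49 over the 8 tested members and 0.08 over all tested features. TPM is a transcript abundance per length that the authors scaled to a fixed total per library. It keeps no read depth, so no counting interval can be given and how precise the low values are is unknown. These are values of whole ovary, so fewer cells of a type and less RNA per cell cannot be told apart.

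**Figure D1:**
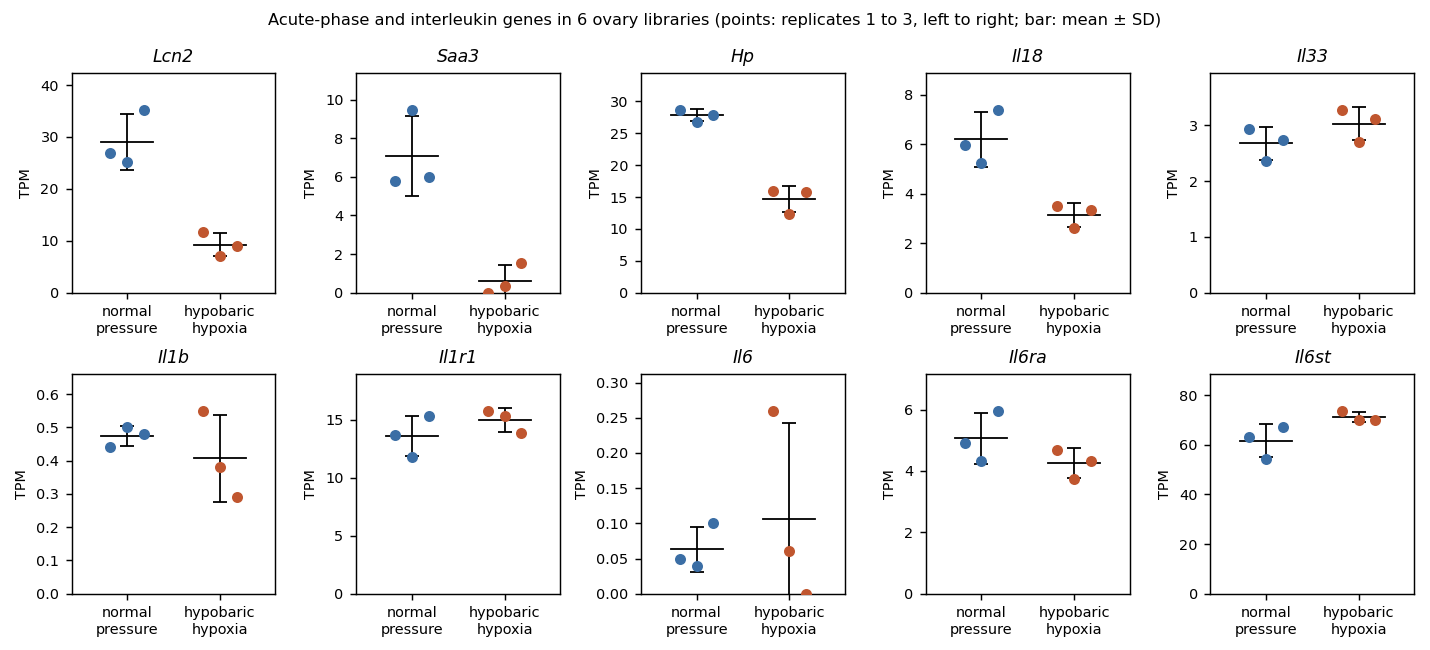
TPM of each gene in every library (linear axes from 0, 3 libraries per group, bar at the mean with SD). The groups are separate for Lcn2, Saa3, Hp and Il18 with hypoxia lower, and for Il6st with hypoxia higher, and the other 5 genes overlap.

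Promoter sequences are shown for 2 acute-phase members that fell (Lcn2 and Saa3), for Saa2, a neighbour of Saa3 that fell too, and for Il6, an upstream member near 0, because all 4 hold the same C/EBP-type letters. They run from 250 bases before to 50 bases after a RefSeq transcript start in GRCm38.p6, 5′ to 3′ on the gene's own strand, and the capitals mark matches to TTNNGCAA on either strand. The windows are chr2:32387690-32387989 (minus strand) for Lcn2, chr7:46715627-46715926 (minus strand) for Saa3, chr7:46751583-46751882 (plus strand) for Saa2 and chr5:30012864-30013163 (plus strand) for Il6.
Lcn2: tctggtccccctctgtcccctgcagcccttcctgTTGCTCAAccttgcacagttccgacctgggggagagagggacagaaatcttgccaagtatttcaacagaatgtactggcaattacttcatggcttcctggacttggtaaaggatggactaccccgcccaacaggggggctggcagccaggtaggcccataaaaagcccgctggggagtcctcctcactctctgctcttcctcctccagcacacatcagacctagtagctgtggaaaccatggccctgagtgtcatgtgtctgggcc
Saa3: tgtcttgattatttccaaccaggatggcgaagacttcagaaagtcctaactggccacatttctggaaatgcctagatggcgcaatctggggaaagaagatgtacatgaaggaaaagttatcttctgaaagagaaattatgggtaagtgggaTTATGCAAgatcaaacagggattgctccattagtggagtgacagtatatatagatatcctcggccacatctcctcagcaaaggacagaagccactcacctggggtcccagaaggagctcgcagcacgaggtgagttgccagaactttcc
Saa2: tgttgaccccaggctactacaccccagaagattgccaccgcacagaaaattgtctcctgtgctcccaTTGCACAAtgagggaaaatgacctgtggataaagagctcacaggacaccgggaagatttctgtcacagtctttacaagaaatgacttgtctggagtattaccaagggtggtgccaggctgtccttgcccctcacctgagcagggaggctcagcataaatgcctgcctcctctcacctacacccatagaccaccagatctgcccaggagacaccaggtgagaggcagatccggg
Il6: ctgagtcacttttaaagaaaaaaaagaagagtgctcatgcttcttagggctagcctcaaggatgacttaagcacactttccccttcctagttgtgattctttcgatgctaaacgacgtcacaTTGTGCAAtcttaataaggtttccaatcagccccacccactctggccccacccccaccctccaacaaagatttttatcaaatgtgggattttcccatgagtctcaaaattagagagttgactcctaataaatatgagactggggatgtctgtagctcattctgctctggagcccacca
The matches begin 216 bases before the start in Lcn2, 99 in Saa3, 183 in Saa2 and 128 in Il6. TTNNGCAA occurs in 10.8% of all 32851 RefSeq windows of this length. Windows were matched for 9 of the 10 members (11 windows), and Hp, which also fell, had no window to search. The letters also occur in 1 of the 2 windows of Il33 and of Il1r1, genes that did not pass the test. They do not occur in the windows of Il18, Il1b, Il6ra or Il6st. The STAT-type motif TTCNNNGAA, held by 8.30% of windows, was in none of the 11, and the hypoxia response core ACGTG, held by 19.6%, was in 1 window of Il1r1 and in that of Il6ra. A match is a description of letters, not a site of binding.

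Lcn2 (chromosome 2, 32384637 to 32387739 in GRCm38.p6) encodes lipocalin-2, which withholds iron from bacteria by binding their siderophores. It measured 26.96, 25.14 and 35.23 TPM in normal-pressure replicates 1 to 3 and 11.66, 7.11 and 9.03 TPM in hypoxia replicates 1 to 3. The highest hypoxia value lay far below the lowest normal-pressure value. The mean went down from 29.1 ± 5.38 to 9.27 ± 2.28 TPM (SD, n = 3 each), a log2 fold change of -1.56 (SE 0.16, limma adjusted p = 1.05e-05).

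Saa3 (chromosome 7, 46711998 to 46719615) encodes serum amyloid A3, the form made outside the liver in mice. Its values were 5.78, 9.47 and 6.01 TPM at normal pressure and 0, 0.33 and 1.56 TPM under hypoxia. All 3 hypoxia libraries were low, replicate 1 was listed at 0 and replicate 2 was near 0, and the groups did not overlap. The log2 fold change of -2.40 (SE 0.26, limma adjusted p = 1.71e-05) depends on the pseudocount of 1 and reads -4.08 with a pseudocount of 0.1, so no fold in TPM is given. The window shown above lies within the annotated span of Saa3, whose outer start is farther upstream.

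Hp (chromosome 8, 109575128 to 109579172) encodes haptoglobin, which binds haemoglobin freed from red cells. The normal-pressure libraries lay close together at 28.68, 26.83 and 27.94 TPM and the hypoxia libraries at 16.02, 12.35 and 15.80 TPM. The groups were separate, with a coefficient of variation of 3.35% at normal pressure. The mean fell from 27.8 ± 0.931 to 14.7 ± 2.06 TPM, a log2 fold change of -0.88 (SE 0.12, limma adjusted p = 0.000116).

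Lcn2 and Hp had nearly the same abundance at normal pressure, and Lcn2 fell further. The ratio of Lcn2 to Hp TPM within a library, which no scaling of libraries can alter, was 0.94, 0.937 and 1.26 at normal pressure and 0.728, 0.576 and 0.572 under hypoxia. The groups were separate (exact permutation test, two-sided, p = 0.1, the smallest that 3 against 3 allows, and 0.12 adjusted over 6 ratios). The ratio of Saa3 to Lcn2 was 0.214, 0.377 and 0.171 against 0, 0.0464 and 0.173, and overlapped (exact permutation p = 0.2, adjusted 0.2).

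Among 32 other acute-phase genes, 28 were in the table and 12 were tested. Of the 12, 7 were lower and 2 higher, beside 7.20% lower and 11.1% higher over all tested features. Of these, Saa2 and Ptx3 reached the filter only through the group in which they were high, so their passing is tied to their difference, and without them 6 of 10 were lower and 1 higher. The median log2 fold change of the 10 was -0.54, beside 0.08 over all features. Orm1 stays in this count, although only replicate 2 of its hypoxia libraries (0.71, 1.48 and 0.93 TPM) exceeded 1 TPM, so its being tested is also tied to its difference. Saa2, another serum amyloid A gene, measured 2.36, 1.02 and 1.91 TPM at normal pressure and 0.26, 0.13 and 0 TPM under hypoxia (log2 fold change -1.26, SE 0.18, limma adjusted p = 0.000235, and 0.0274 with no filter). The hypoxia libraries were all near 0, the log2 fold change reads -3.13 with a pseudocount of 0.1, and the gene was not tested when any 1 normal-pressure library was left out. Its close copy Saa1 was at 0.06 to 0.24 TPM at normal pressure and listed at 0 in the hypoxia libraries, and the division of reads between the copies is uncertain. Serpina3n, a protease inhibitor, fell from 3.98 ± 0.387 to 1.41 ± 0.208 TPM (limma adjusted p = 8.26e-05), the complement gene C3 from 118.4 ± 17.7 to 67.7 ± 11.5 TPM (0.00108) and the iron carrier gene Trf from 69.5 ± 4.2 to 39.5 ± 0.463 TPM (8.66e-05). Transferrin is known as a negative acute-phase protein of the liver, so the genes that fell are not of 1 acute-phase direction. The remaining falls, between -0.60 and -0.52 on the log2 scale, were in the orosomucoid gene Orm1, the ferroxidase gene Cp and Lrg1.

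The 2 rises were in Serpina3g (16.0 ± 2.72 to 22.6 ± 1.03 TPM, limma adjusted p = 0.0121) and the pentraxin gene Ptx3 (0.860 ± 0.106 to 1.91 ± 0.422 TPM, 0.00809), the second of which was below 1 TPM in every normal-pressure library. Serpina3n and Serpina3g belong to a family of similar copies, so the division of reads between them is uncertain. Lbp, Cd14 and Steap4 did not pass, at log2 fold changes of -0.23, -0.12 and -0.10. Orm1 did not pass without normal-pressure replicate 2 (adjusted p = 0.0681) or hypoxia replicate 1 (0.0591), Lrg1 without hypoxia replicate 3 (0.0509), and Ptx3 did not reach the filter without any 1 hypoxia library. With no filter on low values, Serpina3g, Orm1, Ptx3 and Lrg1 did not pass (adjusted p = 0.0793, 0.0988, 0.0611 and 0.0761).

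**Figure D2:**
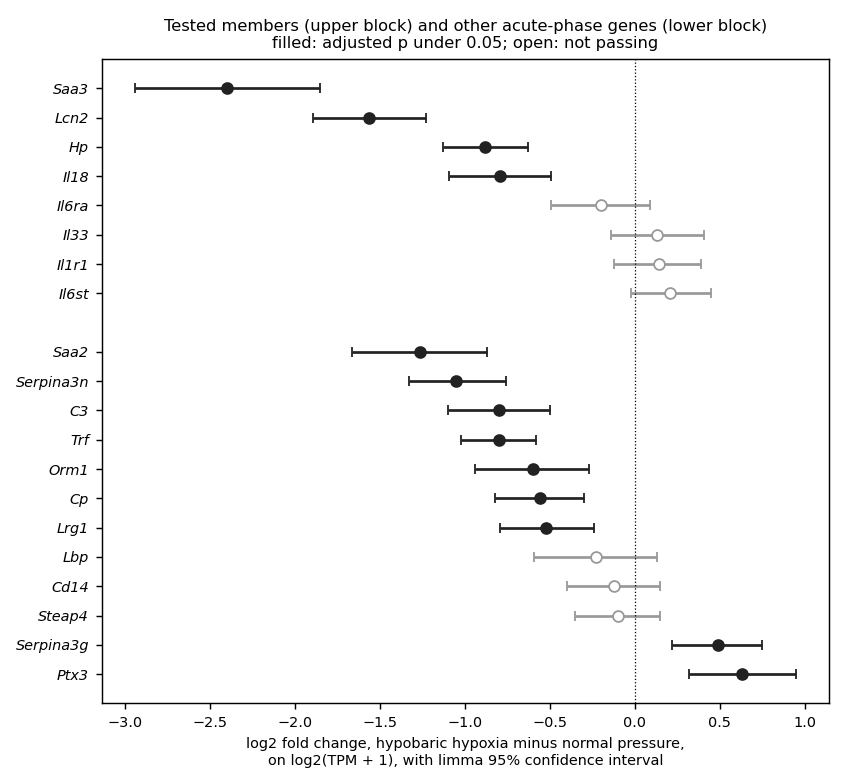
Log2 fold change on log2(TPM + 1) of the 8 tested members (upper block) and of 12 other tested acute-phase genes (lower block), hypoxia minus normal pressure, with limma's 95% confidence interval. Filled points passed the test: 4 members and 7 other genes lie left of 0, and 2 other genes lie right of 0. Over all tested features 7.20% were lower and 11.1% higher. Saa2 and Ptx3 reached the filter only through the group in which they were high.

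Genes of proteins that bind the 3 acute-phase products, listed together with the haem-degrading enzyme gene Hmox1, did not move as a block. Of these 13 genes 10 were tested, 1 fell and 3 rose (median log2 fold change 0.00). Among all tested features 7.20% were lower and 11.1% higher. Slc22a17, the lipocalin-2 receptor gene, measured 26.2 ± 3.07 and 23.8 ± 1.36 TPM and did not pass (adjusted p = 0.46), but passed as lower with quantile normalization and median-ratio scaling (0.0485 and 0.0384). The ratio of Lcn2 to Slc22a17 was 1.07, 1.05 and 1.19 at normal pressure and 0.461, 0.314 and 0.383 under hypoxia (exact permutation p = 0.1, adjusted 0.12). Cd163, the macrophage scavenger receptor for haptoglobin bound to haemoglobin, lay below 1 TPM throughout (0.92 to 0.98 and 0.61 to 0.80 TPM) and was not tested. Scarb1, a lipoprotein receptor that also binds serum amyloid A, fell from 361.7 ± 69.3 to 137.2 ± 42.1 TPM (limma adjusted p = 0.000109). Cd36, the endocytic receptor gene Lrp1 and Hmox1, which degrades haem, rose by 0.52, 0.49 and 0.40 on the log2 scale, and the Hmox1 call was lost when hypoxia replicate 1 or 3 was left out (adjusted p = 0.084 and 0.0877) or with no filter (0.0896).

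Il18 (chromosome 9, 50554700 to 50581841) encodes interleukin-18, a cytokine that epithelial cells and macrophages store as a precursor. It measured 5.96, 5.23 and 7.39 TPM at normal pressure and 3.52, 2.61 and 3.34 TPM under hypoxia. The groups were separate. The mean fell from 6.19 ± 1.10 to 3.16 ± 0.482 TPM, by a log2 fold change of -0.79 (SE 0.14, limma adjusted p = 0.00129). Annotated spans of Bco2 (1.07 to 1.68 TPM) and Tex12 (0 to 0.51 TPM) overlap that of Il18, and the sources used here do not say how shared reads were divided.

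The genes around interleukin-18 gave no such difference. Its decoy Il18bp measured 7.65, 6.10 and 8.80 TPM at normal pressure and 7.07, 8.09 and 5.79 TPM under hypoxia, and the groups overlapped (adjusted p = 0.70). The ratio of Il18 to Il18bp was 0.779, 0.857 and 0.84 against 0.498, 0.323 and 0.577, separate between groups (exact permutation p = 0.1, adjusted 0.12). Il18r1, the receptor that binds interleukin-18, measured 1.26 ± 0.199 and 1.34 ± 0.192 TPM, and its partner Il18rap lay at 0.12 to 0.21 TPM. Casp1, the protease that matures interleukin-18 and interleukin-1β, was at 1.96 ± 0.243 and 1.96 ± 0.259 TPM and its adaptor Pycard at 3.66 ± 0.439 and 3.51 ± 0.172 TPM. Casp8, a cell death protease that can also cleave these cytokines, was at 10.9 ± 1.59 and 10.4 ± 0.753 TPM. The inflammasome sensor Nlrp3 was below 1 TPM in every library. Of 15 inflammasome and processing genes 10 were tested with limma and none passed at an adjusted p of 0.05, beside 18.3% of all tested features. An unadjusted p under 0.05 was found for 1, and quantile and protein-coding total scaling called 1 and 2 higher.

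Il33 (chromosome 19, 29925113 to 29960718) encodes an alarmin that damaged cells release. Its values of 2.94, 2.36 and 2.73 TPM at normal pressure and 3.28, 2.71 and 3.11 TPM under hypoxia overlapped. The log2 fold change was 0.13 with a 95% interval of -0.14 to 0.41 (limma adjusted p = 0.51). The mRNA of its receptor Il1rl1 lay between 0.28 and 0.46 TPM.

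Il1b (chromosome 2, 129364569 to 129371164) encodes interleukin-1β, which induces acute-phase genes. It was near 0, at 0.44, 0.50 and 0.48 TPM at normal pressure and 0.55, 0.38 and 0.29 TPM under hypoxia, and was not tested. The groups overlapped, with the highest and the lowest value both in the hypoxia group. The related ligand Il1a (0.08 to 0.25 TPM), the receptor antagonist Il1rn (0.27 to 0.75 TPM) and the decoy receptor Il1r2 (0.19 to 0.49 TPM) were near 0 too.

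Il1r1 (chromosome 1, 40222480 to 40316201), the signalling receptor of interleukin-1, was well above 1 TPM, at 13.68, 11.78 and 15.27 TPM at normal pressure and 15.76, 15.29 and 13.84 TPM under hypoxia. The groups overlapped, and the log2 fold change was 0.14 (95% interval -0.12 to 0.39, limma adjusted p = 0.46). The coreceptor Il1rap measured 3.15 ± 0.255 and 4.08 ± 0.214 TPM and did not pass (adjusted p = 0.11), although its groups were separate. It passed with protein-coding total scaling, quantile normalization and median-ratio scaling (adjusted p = 0.0218, 0.0437 and 0.0477). The ratio of Il1r1 to Il1rap was 4.17, 4.12 and 4.60 against 3.82, 3.58 and 3.59 (exact permutation p = 0.1, adjusted 0.12). Of 24 other genes of the interleukin-1 family and its adaptors 14 were tested and 1 was lower, beside 7.20% lower over all tested features. Il1rl2, the interleukin-36 receptor, fell from 5.49 ± 0.724 to 3.70 ± 0.236 TPM (adjusted p = 0.0199). This call was lost without normal-pressure replicate 3, hypoxia replicate 1 or hypoxia replicate 2 (adjusted p = 0.0743, 0.0702 and 0.0533) and with no filter (0.0905).

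Il6 (chromosome 5, 30013114 to 30019975) encodes interleukin-6, the main inducer of acute-phase genes in liver. It was near 0 throughout, at 0.05, 0.04 and 0.10 TPM at normal pressure and 0.26, 0.06 and 0 TPM under hypoxia. The groups overlapped, hypoxia replicate 3 was listed at 0 and the highest value was hypoxia replicate 1. It was not tested and no fold is given. The related ligand Lif was at 0.21 to 0.55 TPM.

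The receptors were far more abundant than the ligand. Il6ra (chromosome 3, 89869324 to 89913196), which binds interleukin-6, measured 4.92, 4.31 and 5.96 TPM at normal pressure and 4.69, 3.75 and 4.33 TPM under hypoxia. The groups overlapped (log2 fold change -0.20, 95% interval -0.49 to 0.09, limma adjusted p = 0.32). Il6st (chromosome 13, 112464070 to 112506860), the gp130 subunit shared by the whole family, was the most abundant member, at 63.26, 54.23 and 67.33 TPM at normal pressure and 73.69, 69.77 and 70.07 TPM under hypoxia. Every hypoxia library was above every normal-pressure library, but the log2 fold change of 0.21 (95% interval -0.02 to 0.45) did not pass (limma adjusted p = 0.20). Whether Il6ra and Il6st passed depended on scaling. Il6ra passed as lower with quantile normalization and median-ratio scaling (adjusted p = 0.0482 and 0.0458), and Il6st passed as higher with these and with protein-coding total scaling (0.00957, 0.0479 and 0.0112). The ratio of Il6ra to Il6st, free of scaling, was 0.0778, 0.0795 and 0.0885 at normal pressure and 0.0636, 0.0537 and 0.0618 under hypoxia (exact permutation p = 0.1, adjusted 0.12).

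Of 25 other genes of the interleukin-6 family and its signalling 21 were tested, 4 rose and 3 fell (median log2 fold change 0.07). Without 1 that reached the filter through 1 group alone, 4 of 20 rose and 2 fell. The shares over all tested features were 11.1% higher and 7.20% lower. Clcf1, a secreted ligand of this family whose groups overlapped, fell from 5.42 ± 1.24 to 3.62 ± 0.641 TPM (adjusted p = 0.049). Socs1, a feedback inhibitor of cytokine signalling, fell from 7.73 ± 0.376 to 5.52 ± 0.312 TPM (0.0186). The neurotrophic ligand Cntf rose from 2.31 ± 0.221 to 4.2 ± 0.461 TPM (0.00286), the kinase gene Jak1 from 92.8 ± 7.79 to 127.4 ± 7.44 TPM (0.00942), the receptor gene Lifr from 20.4 ± 2.42 to 26.2 ± 1.78 TPM (0.0458) and the shedding protease Adam17, which can release the interleukin-6 receptor, from 19.6 ± 2.35 to 26 ± 1.5 TPM (0.025).

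The transcription factor gene Stat3 (37.6 ± 5.23 and 31.6 ± 1.65 TPM) and its target Socs3 (9.06 ± 0.774 and 9.24 ± 1.54 TPM) did not pass. Stat3 passed as lower with protein-coding total scaling, quantile normalization and median-ratio scaling (adjusted p = 0.0103, 0.00687 and 0.00299) and without normal-pressure replicate 2 (0.0126). Osmr, Il11ra1 (which has a close copy in the mouse genome, so its reads may be split) and Adam10 did not pass either, at log2 fold changes of 0.23, 0.02 and 0.19, and Adam10 passed with quantile or protein-coding total scaling (0.0376 and 0.027). Several calls were lost when 1 library was left out, which also leaves the fit with less power. Without hypoxia replicate 2, adjusted p was 0.0504 for Jak1, 0.0997 for Adam17, 0.134 for Clcf1, 0.103 for Socs1 and 0.123 for Lifr. Without hypoxia replicate 1 it was 0.0927 for Adam17, 0.059 for Socs1 and 0.21 for Lifr. Without normal-pressure replicate 1 it was 0.0631 for Adam17, 0.118 for Clcf1 and 0.0869 for Lifr. Clcf1 was also lost without normal-pressure replicate 3 (0.134), and Lifr without normal-pressure replicate 2 (0.0547) or hypoxia replicate 3 (0.0571). With no filter Adam17, Clcf1, Socs1 and Lifr did not pass (0.0831, 0.214, 0.0588 and 0.116), and with a pseudocount of 0.1 Clcf1 and Lifr did not (0.0558 and 0.0502).

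**Figure D3:**
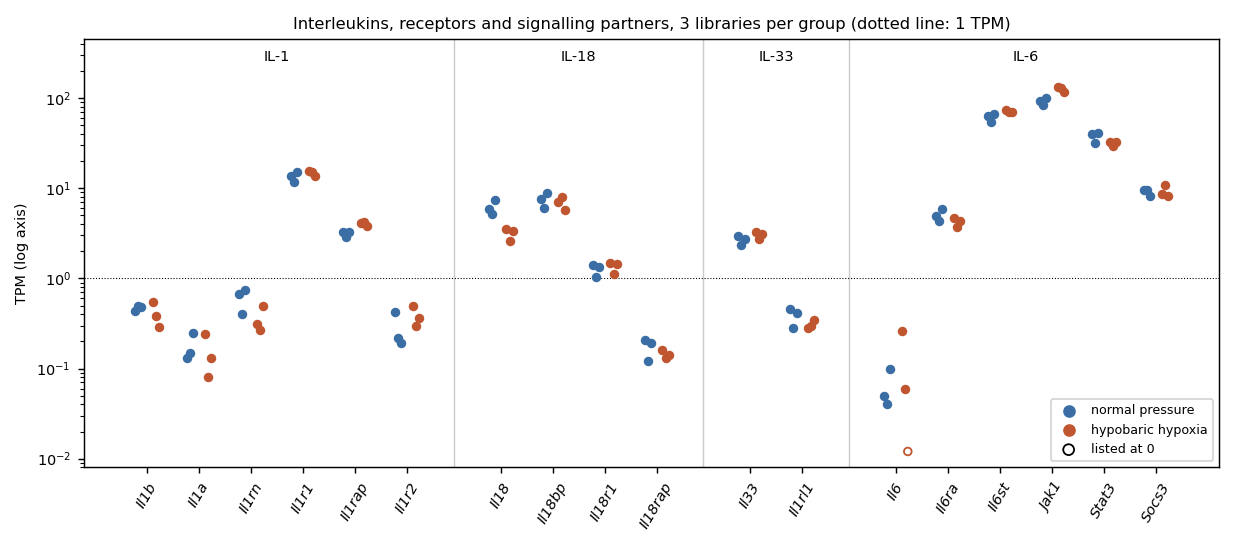
TPM on a log axis of interleukins, their receptors and signalling partners, 3 libraries per group, with an open point for a value listed at 0 and a dotted line at 1 TPM. Il1b, Il1a and Il6 lie below 1 TPM in every library, whereas Il1r1, Il6ra and Il6st lie above it, and among the interleukins shown the groups are separate for Il18.

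The order of the members by level differed between the groups. At normal pressure Il6st was followed by Lcn2 (29.1 TPM) and Hp (27.8 TPM), whose libraries overlapped, then Il1r1 (13.6 TPM), then Saa3, Il18 and Il6ra, neighbours that overlapped, then Il33, Il1b and Il6. Under hypoxia Il1r1 (15.0 TPM) and Hp (14.7 TPM) overlapped and stood above Lcn2 (9.27 TPM), which stood above Il6ra (4.26 TPM). Il18 (3.16 TPM) and Il33 (3.03 TPM) then overlapped, as did Saa3 and Il1b, with Il6 last. Saa3 thus moved from the fifth place to the eighth.

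Of 26 NF-κB and C/EBP factors and targets, which include regulators of acute-phase genes, 24 were tested, 2 fell and 1 rose (median log2 fold change -0.02), beside 7.20% lower and 11.1% higher over all tested features. Cebpb, a C/EBP factor known to drive acute-phase genes in liver, fell from 56.3 ± 4.57 to 41.5 ± 4.95 TPM (limma adjusted p = 0.0167), Bcl3, an NF-κB cofactor, from 7.12 ± 1.07 to 4.93 ± 0.810 TPM (0.033), and Cebpa rose from 32.9 ± 2.46 to 41.6 ± 1.25 TPM (0.0375). Cebpd (4.50 ± 0.797 and 4.40 ± 0.541 TPM) and the NF-κB inhibitor Nfkbia (32.6 ± 3.78 and 30.0 ± 2.17 TPM) did not pass, and Nfkbia passed as lower with quantile normalization and median-ratio scaling (0.0415 and 0.0179). With those settings 7 and 8 genes of the list were lower, and 6 with protein-coding total scaling. Without hypoxia replicate 2 none of the 3 calls held (adjusted p = 0.145 for Cebpb, 0.118 for Bcl3 and 0.165 for Cebpa). Cebpa was also lost without normal-pressure replicate 1 (0.0939), hypoxia replicate 1 (0.163) or hypoxia replicate 3 (0.0885), and Bcl3 when hypoxia replicate 3 (0.0551) or normal-pressure replicate 1 (0.0898) or 3 (0.0864) was left out. With no filter the values were 0.0798, 0.147 and 0.0661 for Cebpb, Bcl3 and Cebpa.

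Of 55 other interleukin and receptor genes 50 were in the table, and 22 stayed below 1 TPM in every library. Of the 26 tested, 3 rose and 3 fell (median log2 fold change -0.06), beside 11.1% higher and 7.20% lower over all tested features. The receptor genes Il4ra and Il10rb fell from 23.6 ± 2.73 to 15.4 ± 1.47 TPM (limma adjusted p = 0.00306) and from 40.6 ± 5.45 to 27.4 ± 1.32 TPM (0.00408), and Il20rb from 7.33 ± 1.30 to 5 ± 0.987 TPM (0.0394). Il15, a cytokine that sustains natural killer cells, rose from 2.59 ± 0.630 to 4.07 ± 0.250 TPM (0.0217), Il17ra from 11.6 ± 1.32 to 15.7 ± 1.04 TPM (0.0223) and Il12rb2 from 1.23 ± 0.297 to 2.01 ± 0.100 TPM (0.0444). Il4ra and Il10rb passed under every alternative tried. The Il20rb call was lost on leaving out hypoxia replicate 2 (0.18) or normal-pressure replicate 1 (0.0604) or 3 (0.119), Il17ra without hypoxia replicate 2 (0.114) and Il12rb2 without normal-pressure replicate 2 (0.0628) or any 1 hypoxia library (0.126, 0.0864 and 0.0635). With no filter Il15, Il17ra, Il12rb2 and Il20rb did not pass (0.124, 0.0804, 0.129 and 0.184), nor did Il12rb2 with a pseudocount of 0.1 (0.056).

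Most luteal and adipose markers were lower in the hypoxia group, as were Lcn2, Saa3, Hp and Il18, and epithelial markers were mixed. The marker counts stand beside 7.20% lower and 11.1% higher over all tested features. All 12 luteal markers were tested, 11 fell, and their summed level was 5328 to 8151 TPM at normal pressure and 2216 to 2888 TPM under hypoxia. Of 11 tested oviduct epithelium markers 3 fell (Ovgp1, Ltf and Krt7), with sums of 630.8 to 924 and 301.8 to 583.3 TPM, and Sprr2f was near 0. Most of that sum was Ovgp1, and without it the sums overlapped, at 190.4 to 254.7 and 127.7 to 229.8 TPM. The calls of Ovgp1 and Krt7 were lost with no filter (0.117 and 0.113), that of Ovgp1 also with robust variance (0.151), and that of Krt7 also when hypoxia replicate 1 or 2 (0.0861 and 0.176) or normal-pressure replicate 1 (0.17) was left out. Of 10 tested adipose markers 8 fell, with sums of 332.3 to 408.4 and 161.5 to 271.8 TPM, and Lep was below 1 TPM. Adipoq and Fabp4 did not pass without normal-pressure replicate 2 (0.0693 and 0.0923) or with no filter (0.108 and 0.123), nor did Fabp4 with robust variance (0.169). Of 12 surface epithelium markers 4 fell and 1 rose, with sums of 302.1 to 385.3 and 289.8 to 350.1 TPM that overlapped. The part of these cells in the falls of Lcn2, Saa3, Hp and Il18 was not tested. Among hypoxia libraries replicate 2 had the lowest Lcn2, Hp and Il18, whereas Saa3 was lowest in replicate 1. Replicate 2 also had the lowest luteal, oviduct, surface epithelium, theca and stroma, endothelial, macrophage and neutrophil sums. Low sums there were thus not particular to luteal or oviduct markers. Its adipose sum and its lymphocyte and mast cell sum were the highest, and its granulosa, erythroid and hepatocyte sums lay between the others. At normal pressure replicate 3 had the highest Lcn2 and Il18, the highest luteal, macrophage, endothelial and neutrophil sums and the lowest adipose sum. Saa3 was highest in replicate 2 and Hp in replicate 1. Replicate 2 had the lowest luteal, oviduct, surface epithelium, theca and stroma, granulosa, endothelial, macrophage, neutrophil, and lymphocyte and mast cell sums. Protein-coding genes other than Zfp949 held 37.3% of its TPM, beside 43.6% and 45.7% in normal-pressure replicates 1 and 3.

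Blood and immune cells gave other values. Of 12 neutrophil markers 11 were in the table and 3 were tested, Ltf being the 1 that fell. Ltf is also an oviduct gene, and its call was lost under 9 of the alternatives. The defining neutrophil genes Ly6g, Retnlg, Camp, Ngp and Mpo were below 1 TPM in every library. S100a8 measured 1.64, 1.5 and 3.12 TPM at normal pressure and 1.32, 0.33 and 1.76 TPM under hypoxia (adjusted p = 0.114, unadjusted 0.0312), and S100a9, which was not tested, 0.62, 0.48 and 2.66 TPM and 0.52, 0.34 and 0.48 TPM. Both overlapped between groups and were highest in normal-pressure replicate 3. The sum of the list without Ltf was 4.59 to 9.87 TPM at normal pressure and 2.96 to 5.16 TPM under hypoxia. Macrophage and dendritic cell markers summed to 307.4 to 384.5 and 367.6 to 389 TPM, with 2 of 13 tested higher (Lyz2 and Mertk) and 1 lower (Fcgr1). Without Lyz2 the sums were 192.2 to 236.6 and 189.9 to 214.2 TPM, and Csf1r passed as lower with quantile normalization, median-ratio scaling and protein-coding total scaling (adjusted p = 0.0238, 0.02 and 0.0356). The Lyz2 call was lost with no filter (0.0829) and on leaving out normal-pressure replicate 1 (0.0559) or hypoxia replicate 1 (0.0811) or 3 (0.0535). Hepatocyte markers summed to 17.2 to 24.4 and 32.8 to 39.0 TPM, nearly all from Apoa1, and Alb was at or near 0. Endothelial sums were 145.7 to 178.5 and 179.8 to 183.6 TPM, with 2 of 10 genes higher. Granulosa markers summed to 1988 to 2133 and 2258 to 2496 TPM (2 of 12 higher and 3 lower), theca and stroma markers to 750.5 to 917.4 and 700.8 to 796.6 TPM (3 of 10 higher and 2 lower), erythroid markers to 247.5 to 447.4 and 1664 to 2240 TPM (all 5 tested higher), and lymphocyte and mast cell markers to 19.6 to 24.0 and 37.4 to 43.5 TPM. The last sum is mostly Kit, also an oocyte gene, the 1 of 2 tested that rose.

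**Figure D4:**
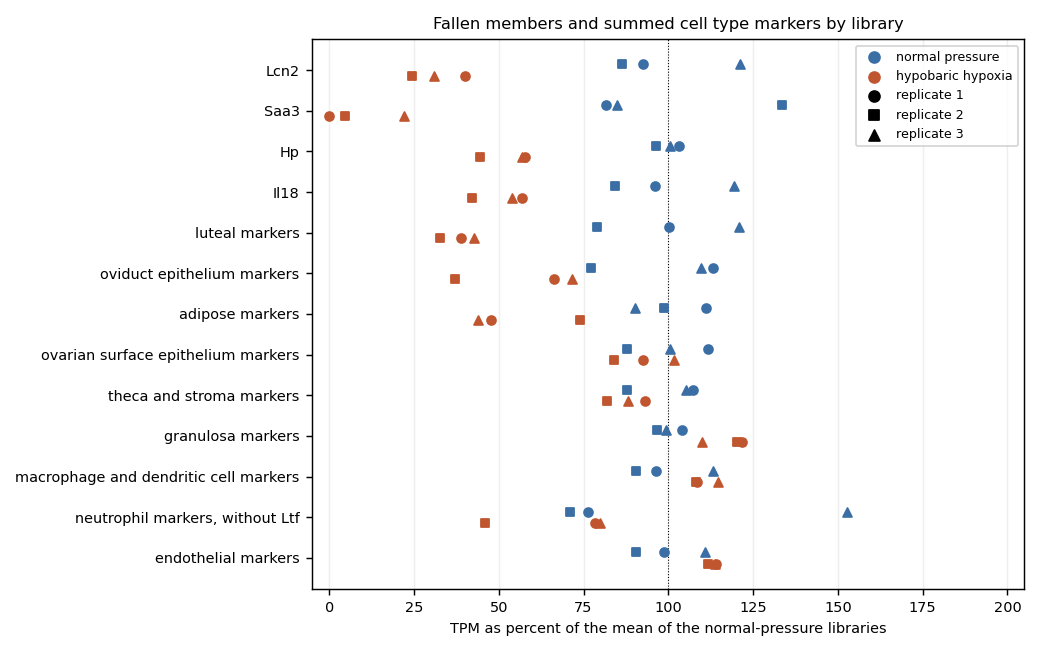
Each library's TPM of the 4 members that fell, and of summed cell type markers, as a percentage of the normal-pressure mean (dotted line at 100). Lcn2 stood at 24.4 to 40.1 and Hp at 44.4 to 57.6 under hypoxia, beside 32.8 to 42.8 for luteal, 37.0 to 71.5 for oviduct, 43.9 to 73.9 for adipose and 108.2 to 114.5 for macrophage markers. The oviduct sums of the groups overlap once Ovgp1 is left out, and the macrophage sums overlap with and without Lyz2.

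The genes whose spread over the 6 libraries was most like that of the 3 acute-phase members were found by the sum of absolute differences in the share of a gene's total TPM held by each library, where 0 is an identical profile. For Lcn2 these were the glutathione peroxidase gene Gpx3 (0.0485), the receptor gene Tnfrsf12a (0.0589) and Epdr1 (0.0797), among 10654 protein-coding genes. For Hp they were the matrix genes Lum (0.0282) and Fbln2 (0.0371), with Pgm5 between them (0.032). For Saa3 the nearest were the sterol enzyme gene Hsd17b7 (0.248), the betaine enzyme gene Bhmt (0.277) and the efflux transporter gene Abcb1b (0.292), all at a larger distance. Gpx3 measured 423.05, 366.68 and 569.66 TPM at normal pressure and 165.66, 122.96 and 154.07 TPM under hypoxia. Like Lcn2 it was highest in normal-pressure replicate 3 and lowest in hypoxia replicate 2, a likeness for which the search selects. Gpx3 and Abcb1b are also among the luteal markers counted above.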

How the data were processed

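RNA of 6 whole-ovary samples, 3 per group, was sequenced, and groups and replicate numbers were read from the titles. The authors deposited TPM values in 1 table, with 33036 features and a column per library. HISAT2, Bowtie2 and DESeq2 and the build GRCm38.p6 are named, without roles or versions, per the submitters' processing notes, and which read counter and annotation were used is not given in the sources used here. Libraries were made with a SMARTer mRNA kit, per the labels' protocols. Columns sum to 998175 to 998954 TPM, so a change in abundant features shifts all others: Zfp949 alone held 14.5% to 16.3% at normal pressure and 10.2% to 13.7% under hypoxia. Features listed at 0 numbered 3634 to 5227 per library. TPM keeps no depth.

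Features with at least 1 TPM in at least 3 libraries (17120) were tested with limma 3.58.1 (R 4.3.3, mean-variance trend) on log2(TPM + 1), hypoxia minus normal pressure, with no covariate and Benjamini-Hochberg adjustment over all features at 0.05, two-sided. Fold changes are on that scale, which understates changes of low genes. The script was tested on simulated data. Gene lists held literature markers and pathway genes. Named were all members, a fixed set of partners, and up to 3 highest and 3 lowest called genes per pathway list whose higher group averaged 2 TPM or more. The members and lists were chosen with earlier results of these data known. The 6 ratios, the motif and promoters shown, and the named cell type markers and other acute-phase genes beyond that rule, were chosen after the values were seen. The values of 1 gene that the rule names are not reported here. Coordinates and promoters are from RefSeq (GRCm38.p6). Alternatives were another pseudocount, other filters, 3 scalings, robust variance, a replicate block and leaving out each library. Marker sums without their most abundant gene, and counts without genes that reached the filter through 1 group alone, were added after seeing the data.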

Additional observations from a re-analysis of the deposited data

How the results depend on the processing

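Lcn2, Saa3, Hp and Il18 were lower and passed under all 14 alternatives, with log2 fold changes of -1.72 to -1.40, -4.08 to -2.10, -0.97 to -0.77 and -0.95 to -0.67 and highest adjusted p of 0.0172, 0.025, 0.0174 and 0.0458. Il33 and Il1r1 passed under none. No member was called higher except 1, Il6st, with median-ratio, quantile or protein-coding total scaling, and with the first 2 of these the call of Il6ra made 5 lower. Over all features 687 were higher and 546 lower with no filter, 3399 and 2772 with quantile normalization, 3135 lower with median-ratio scaling, and 3752 and 2524 with protein-coding total scaling. Median-ratio scaling gave 46.8% of calls higher, beside 60.7% as deposited, 46.4% without normal-pressure replicate 2 and 72% without replicate 3. Leaving out 1 library gave 1170 to 2044 higher and 795 to 2143 lower. Normal-pressure replicate 2 (2143 lower without it) and replicate 3 (795 lower), and hypoxia replicates 1 and 2 (1239 and 1170 higher), moved these counts most. Of other acute-phase genes 1 was higher with no filter, 1 higher and 3 lower with a minimum of 5 TPM, and 1 to 2 higher and 5 to 7 lower without any 1 library. Over the alternatives, calls numbered 0 to 1 higher and 0 to 4 lower in the interleukin-1 list, 1 to 5 and 1 to 5 in the interleukin-6 list, 0 to 2 and 0 to 8 in the NF-κB and C/EBP list, 0 to 4 and 2 to 5 in other interleukins, and 2 to 3 and 1 to 2 in binding partners. None of the named calls changed direction under the alternatives run. The named cell type markers entered these alternatives after their values were seen.

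Replicate numbers showed no clear pairing: deviations from group means correlated at -0.0341, 0.11 and -0.0502 for equal numbers 1, 2 and 3. Not every library correlated best with its own number, but 3 libraries per group are too few to exclude pairing. The replicate block gave 2521 higher and 1596 lower features, beside 1906 and 1233 without it, and the same 4 members lower. The unknown depth limits what can be said of Il1b, Il6 and Saa3 under hypoxia, where values are near 0.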
